A study of Homo sapiens with 16 samples.

Results

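MECOM, PRDM16 and RPN1 are the genes at the breakpoints of the 3q26, 1p36 and 3q21 rearrangements of myeloid leukaemia, and their TOP2A cleavage cluster regions are described here. A region belonged to a gene when its centre lay in the RefSeq gene body or in the 2 kb on either side of it. By that rule 681 of the 1469949 regions in 5 lists belonged to them: 387 to MECOM, 279 to PRDM16 and 15 to RPN1. A cleavage cluster region is a short stretch of DNA that was recovered with covalently bound TOP2A and called by the authors as enriched.

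The lists came from K562, a human chronic myeloid leukaemia cell line, and the series names 16 libraries. The poisons were 8 µM p-benzoquinone, applied for 4 h, and etoposide at 25 µM, mitoxantrone at 2 µM and genistein at 50 µM, each applied for 1 h. Controls received the DMSO vehicle, and stocks brought DMSO to 0.05%. The labels give no single exposure time for a vehicle library, so times may differ wherever a poison is set beside DMSO. Each list stands for the pre-amplified libraries of its treatment: 3 vehicle, 3 etoposide, 2 p-benzoquinone, 2 genistein and 1 mitoxantrone library. The other 5 libraries, 3 unamplified and 2 of input DNA, are tied to no list by the labels. The p-benzoquinone library titled as unamplified is described as amplified, so whether it entered the p-benzoquinone list is not certain. With 1 list per treatment, and values of a single library only for mitoxantrone, no p-value is given between treatments, and intervals cover counting error only.

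DNA topoisomerase II alpha cuts both strands of a duplex, passes another duplex through the break and closes it again. TOP2 poisons leave the enzyme held on the cut DNA, and breaks of this kind are a known source of translocations in leukaemia that follows chemotherapy. MECOM encodes a zinc finger transcription factor with a long form, MDS1-EVI1, which carries a PR domain, and a short form, EVI1, which starts further along the gene. PRDM16 encodes its closest relative, also with a PR domain, and both proteins act in haematopoietic stem cells. RPN1 encodes ribophorin I, a subunit of the oligosaccharyltransferase that adds sugar chains to proteins in the endoplasmic reticulum. In inv(3) and t(3;3), breaks near RPN1 bring a distal enhancer of GATA2 next to MECOM and EVI1 is expressed. In t(1;3) the same 3q21 stretch is joined to PRDM16.

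In hg38, MECOM (gene 2122) lies on chromosome 3 from 169083507 to 169663712, is 580.2 kb long and is read from the upper coordinate downwards. PRDM16 (gene 63976) lies on chromosome 1 from 3069203 to 3438621, is 369.4 kb long and is read upwards. RPN1 (gene 6184) lies on chromosome 3 from 128619969 to 128650818, is 30.8 kb long and is read downwards. The RefSeq promoter table gives the strand of MECOM; the strands of the other genes are textbook knowledge. Exons were not in the table used, so a region is placed by its distance from the gene start.

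MECOM has 3 annotated starts, and the 250 bases before each are printed because they divide the gene into its MDS1-EVI1 and EVI1 parts. The first start, at 169663712, opens the long form. The other starts, at 169147471 and 169146539, lie 516.2 kb and 517.2 kb further along and open the short form. The sequences are RefSeq's (GRCh38.p14, minus strand, 5′ to 3′), and capitals mark the GC box GGGCGG or its reverse complement CCGCCC. They cover chr3:169663713-169663962, chr3:169147472-169147721 and chr3:169146540-169146789.

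MDS1-EVI1 start: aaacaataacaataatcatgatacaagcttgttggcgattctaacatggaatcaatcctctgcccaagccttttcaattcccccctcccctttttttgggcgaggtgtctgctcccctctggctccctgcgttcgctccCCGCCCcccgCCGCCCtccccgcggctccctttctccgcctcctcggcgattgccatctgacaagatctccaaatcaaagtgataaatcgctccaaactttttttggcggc

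EVI1 upper start: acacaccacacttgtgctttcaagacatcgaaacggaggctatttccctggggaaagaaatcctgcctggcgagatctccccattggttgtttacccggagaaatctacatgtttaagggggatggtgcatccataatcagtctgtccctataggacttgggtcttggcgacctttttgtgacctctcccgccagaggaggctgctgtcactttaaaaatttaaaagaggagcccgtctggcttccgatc

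EVI1 lower start: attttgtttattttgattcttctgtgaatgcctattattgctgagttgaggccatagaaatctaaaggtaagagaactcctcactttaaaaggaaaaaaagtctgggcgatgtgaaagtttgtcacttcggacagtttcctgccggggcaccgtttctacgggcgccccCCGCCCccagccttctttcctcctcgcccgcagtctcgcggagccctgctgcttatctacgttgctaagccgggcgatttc

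The long-form promoter held 2 GC boxes, the lower EVI1 promoter 1 and the upper EVI1 promoter 0, where 42.6% of the 35116 promoters in the table held at least 1 on either strand. Their GC contents were 53.6%, 50.0% and 49.6%, against a median of 58.0%. None of the 3 windows overlapped a region in any list. Such an overlap was uncommon among all promoters of the table, from 2.21% of them under mitoxantrone to 6.56% under p-benzoquinone.

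Before the results, 1 feature of the lists has to be stated. The deposited region value, which has no stated unit, mostly falls on whole multiples of 1 to 3 steps per list, as read numbers scaled per library do. Steps were fine (0.227 to 0.246) or coarse (0.324 to 0.358). Only fine steps occurred under p-benzoquinone and only coarse ones under mitoxantrone and genistein, while the vehicle and etoposide lists had some of each. Ratios between lists that share a class are also given within it. The p-benzoquinone list shares no class with the genistein and mitoxantrone lists, so class and treatment cannot be told apart in those pairs.

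MECOM carried more regions than an average stretch of its length in vehicle-treated cells. DMSO gave 96 regions in the 584.2 kb window, or 16.4 per 100 kb. That was 1.46 times the mean of the DMSO list (exact Poisson 95% interval 1.19 to 1.79). Genistein gave 113 regions and 1.29 times its list mean (1.06 to 1.55). Mitoxantrone gave 51 and 1.19 times (0.885 to 1.56), p-benzoquinone 87 and 1.15 times (0.917 to 1.41), and etoposide 40 and 1.04 times (0.74 to 1.41). The order of the levels was DMSO, genistein, mitoxantrone, p-benzoquinone and etoposide, and the intervals of neighbours in that order overlapped. Only the DMSO and genistein intervals lay wholly above the list mean.

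Among the 740 protein-coding genes of 0.5 to 2 times its length, MECOM stood at percentile 92.0 for DMSO density, with 59 genes above it. Its percentile was 38.6 in the etoposide list, 63.4 in the p-benzoquinone list, 68.2 in the mitoxantrone list and 87.7 in the genistein list. Counting error leaves these ranks wide: the DMSO interval maps to percentiles 68.5 to 99.1 and the etoposide interval to 3.51 to 89.5.

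PRDM16 stood out in 1 list, that of p-benzoquinone. Its 373.4 kb window held 113 p-benzoquinone regions, or 30.3 per 100 kb. This was 2.33 times the list mean (1.92 to 2.80). Of the 1353 genes of like length 12 had a higher density, which put PRDM16 at percentile 99.1. The DMSO list gave 54 regions and 1.29 times its mean (0.968 to 1.68), and etoposide 31 and 1.26 times (0.854 to 1.78). Genistein gave 55 and 0.98 times (0.738 to 1.28), and mitoxantrone 26 and 0.948 times (0.619 to 1.39). The p-benzoquinone interval overlapped none of the others, and the other 4 overlapped each other. Covered bases showed the same order at the top, with 5.68% of the window covered under p-benzoquinone and 1.17% to 2.46% in the other lists.

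RPN1 is short and held few regions. DMSO gave 4, p-benzoquinone 5, genistein 3, mitoxantrone 2 and etoposide 1 in 34.8 kb. The folds of the list mean ran from 0.434 for etoposide (0.011 to 2.42) to 1.10 for p-benzoquinone (0.358 to 2.57). All 5 intervals contained 1, so no departure from the list mean was detectable at these numbers. Among 6778 genes of like length RPN1 stood between percentile 21.6 (etoposide) and 51.5 (DMSO).

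**Figure D1:**
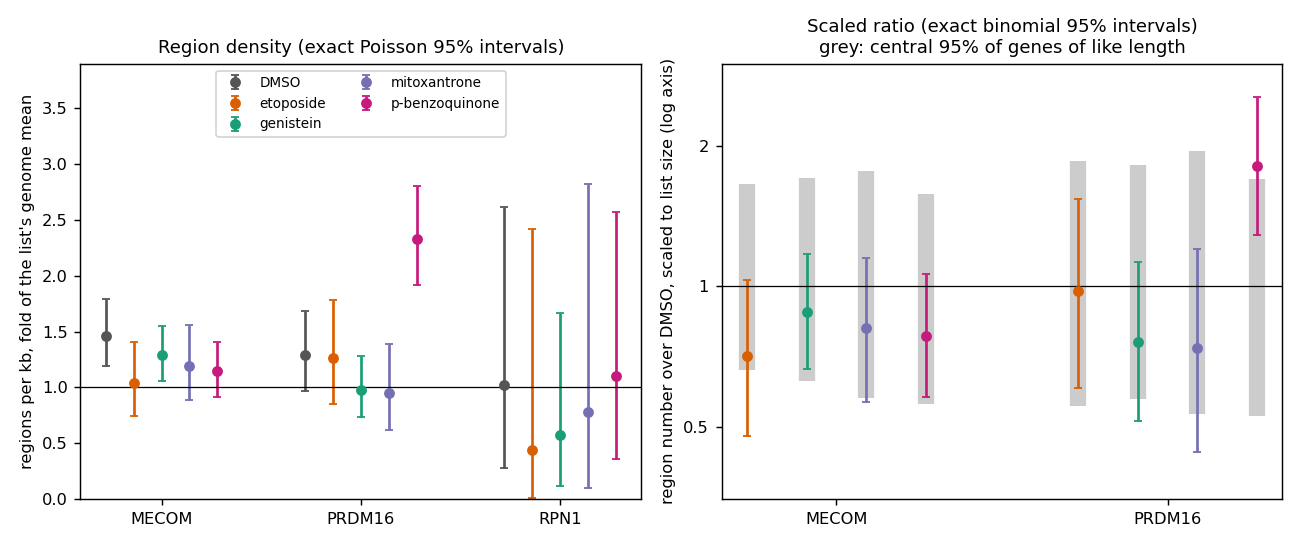
Left, region density of the 3 genes in each list as a fold of that list's genome mean (points) with exact Poisson 95% intervals (bars). Right, for MECOM and PRDM16, region number over DMSO scaled to list size on a log axis, with exact binomial 95% intervals and, in grey, the central 95% of genes of like length: the p-benzoquinone point of PRDM16, at 1.81, lies above its grey bar.

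The next comparison asks whether a poison moved regions into or out of these genes relative to the vehicle. Numbers were scaled to list size, which ran from 0.589 (etoposide) to 1.34 times (genistein) that of the vehicle list. The 4 ratios of a gene share its DMSO regions and are not independent. A gene was called when the exact binomial 95% interval of its ratio excluded 1 and it had at least 10 regions in both lists together. MECOM and PRDM16 met that minimum in all 4 comparisons, and RPN1 met it in none.

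Of the 8 ratios that could be called, 1 was. PRDM16 went from 54 DMSO to 113 p-benzoquinone regions, a scaled ratio of 1.81 (1.29 to 2.55), and the same rule called 2.97% of 8417 genes higher under p-benzoquinone. In the other comparisons it called 1.57% of genes higher (etoposide), 2.76% (genistein) and 2.14% (mitoxantrone). Among genes of its length this ratio was at percentile 98.7, where 4.00% were called higher and the median was 0.999. The mitoxantrone ratio of PRDM16 was 0.736 (0.442 to 1.2) and its genistein ratio 0.761 (0.513 to 1.13). Its etoposide ratio, 0.975 (0.606 to 1.54), was closest to 1.

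MECOM lay below 1 under all 4 poisons, and no interval excluded 1. The genistein ratio was 0.879 (0.664 to 1.17) and the mitoxantrone ratio 0.812 (0.566 to 1.15). The p-benzoquinone ratio was 0.782 (0.578 to 1.06). Etoposide gave the lowest, 0.708 (0.477 to 1.03), which was also the lowest in rank, at percentile 5.41 of 740 genes. The call rule marked 2.17% of 8417 genes lower under p-benzoquinone, 2.4% of 6497 under mitoxantrone, 3.87% of 8079 under genistein and 1.49% of 6306 under etoposide. The RPN1 ratios ran from 0.425 for etoposide (0.00862 to 4.29) to 1.08 for p-benzoquinone (0.232 to 5.44).

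Set against the other poisons, PRDM16 held fewer regions relative to list size than under p-benzoquinone, which was applied for 4 h and not 1 h. Mitoxantrone reached 0.407 of the p-benzoquinone level (0.255 to 0.628), genistein 0.421 (0.299 to 0.586) and etoposide 0.54 (0.351 to 0.809). Within the fine class, on values under 12, the etoposide ratio to p-benzoquinone turned to 1.33 (0.636 to 2.54), from 11 and 69 components (single values of a region). The mitoxantrone and genistein lists hold no fine part to set beside p-benzoquinone. Among the poisons given for 1 h the PRDM16 ratios were 1.28 for etoposide over genistein (0.798 to 2.03), 1.32 for etoposide over mitoxantrone (0.761 to 2.32) and 1.03 for genistein over mitoxantrone (0.637 to 1.72). All 6 poison pairs of MECOM gave intervals that contained 1, with ratios from 0.805 to 1.12. Within a class its etoposide ratio was 1.1 to p-benzoquinone (0.423 to 2.44), 0.601 to genistein (0.269 to 1.21) and 0.587 to mitoxantrone (0.252 to 1.26), and its genistein ratio to mitoxantrone was 0.976 (0.586 to 1.65). Doses differed between all poisons.

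Within a step class the PRDM16 difference was smaller. The fine p-benzoquinone values under 12 placed 69 components in PRDM16 and the fine DMSO values 32, a scaled ratio of 1.14 (0.742 to 1.80), which is no longer called. The same rule called 1.3% of 5295 genes higher and 1.87% lower in that comparison. All values under 12, whatever their step, gave 1.79. The class values leave out 40.4% of the DMSO and 34.6% of the p-benzoquinone components. The vehicle list itself differed between classes in PRDM16: its fine part stood at 1.87 times the part mean (1.28 to 2.64) and its coarse part, on 4 components, at 0.472 times (0.129 to 1.21). Fine over coarse in DMSO was 3.96 (1.40 to 15.4). Against the coarse DMSO part alone, PRDM16 had a mitoxantrone ratio of 2.05 (0.621 to 8.72), a genistein ratio of 2.02 (0.675 to 8.11) and an etoposide ratio of 3.13 (0.948 to 13.3). Each of these rests on those 4 components and none excluded 1. The call rule marked 1.2% of 2000 genes higher for mitoxantrone, 0.957% of 2926 for genistein and 0.731% of 1505 for etoposide. Within the fine class PRDM16 stood at 1.52 under etoposide on 11 components (0.693 to 3.1), where 1.75% of 2117 genes were called higher.

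The p-benzoquinone parts put PRDM16 at 1.77 times the part mean on 13 components (0.94 to 3.02) and at 2.25 times on 56 (1.70 to 2.92). The 2 fine etoposide parts gave 2.03 times on 5 components (0.659 to 4.73) and 4.29 times on 6 (1.58 to 9.35), and the coarse etoposide part 1.48 times on 12 (0.762 to 2.58). Every fine part thus lay above its mean in PRDM16, and for 2 of the 5 the interval included 1. The coarse parts of genistein were at 0.685 (0.275 to 1.41) and 1.2 times (0.641 to 2.06), and that of mitoxantrone at 0.967 times (0.5 to 1.69). Whether the p-benzoquinone excess over DMSO belongs to the treatment or to the libraries of the fine class cannot be told apart in the whole lists.

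MECOM varied less between classes. Its fine DMSO part stood at 1.57 times the part mean (1.13 to 2.12) and its coarse part at 1.13 times (0.633 to 1.87), with a fine over coarse ratio of 1.39 (0.753 to 2.69). Within the fine class MECOM had an etoposide ratio of 0.739 (0.28 to 1.66) and a p-benzoquinone ratio of 0.67 (0.438 to 1.03). Within the coarse class mitoxantrone gave 1.18 (0.604 to 2.41), genistein 1.16 (0.63 to 2.24) and etoposide 0.695 (0.279 to 1.65). The genistein and mitoxantrone ratios changed side there. The rule called genes lower in 0.425% (fine) and 1.2% (coarse) of cases for etoposide, 1.3% for genistein and 1.35% for mitoxantrone. For etoposide and p-benzoquinone the ratio stayed below 1 in each class they share with DMSO, with intervals that included 1.

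**Figure D2:**
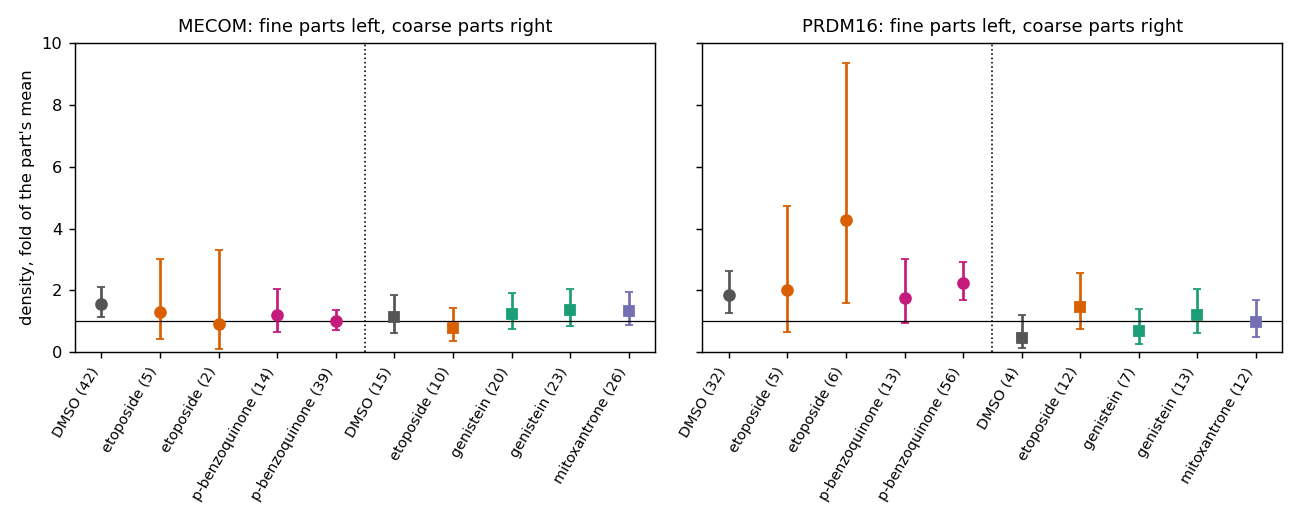
Density of component values in MECOM (left) and PRDM16 (right) for each value-step part of the 5 lists, as a fold of the part's genome mean, with exact Poisson 95% intervals; the number of components is in brackets and circles are fine parts, squares coarse parts. In PRDM16 the fine parts lie between 1.77 and 4.29 and the coarse parts between 0.472 and 1.48.

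MECOM regions were spread along the whole gene. With the window divided into 10 bins of 58.4 kb, the 5 lists together placed between 31 and 52 regions in each. Bins 3 and 4, from 114.8 to 231.7 kb, held 52 and 51, and bin 5, up to 290.1 kb, held 31. No stretch longer than 7.46 kb was free of regions from every list. Within single lists the longest free stretch ran from 23.7 kb in DMSO to 42.7 kb under etoposide.

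The etoposide-free stretch of MECOM lay 509.9 to 552.5 kb from the start and contained both EVI1 starts. The longest p-benzoquinone-free stretch, 40.2 kb long from 496.0 to 536.2 kb, contained them too. In the etoposide-free stretch DMSO had 8 regions, genistein 6, mitoxantrone 5 and p-benzoquinone 4. In the p-benzoquinone-free stretch DMSO and genistein had 7 each, mitoxantrone 5 and etoposide 2. These stretches were chosen for their length after the values were seen.

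The 66.0 kb EVI1 part and the 518.2 kb MDS1 part of the window did not differ in density beyond counting error. EVI1 over MDS1 was 1.12 in DMSO on 12 EVI1 regions (exact binomial 95% interval 0.558 to 2.07). It was 1.25 under mitoxantrone on 7 (0.475 to 2.8), and 0.847 under genistein on 11 (0.41 to 1.58). It was 0.796 under p-benzoquinone on 8 (0.332 to 1.65) and 0.637 under etoposide on 3 (0.126 to 2.01). All 5 intervals contained 1, so a difference between the parts was not detectable at these numbers.

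Around the EVI1 starts each list held at most a few regions, too few to read a difference between lists. The list means ran from 6.61 (etoposide) to 15.0 (genistein) regions per 100 kb, so few regions are likely within 5 kb of any start. The DMSO list had 1 region within 5 kb of the lower start, at 169146326 to 169146505, which ended 34 bp inside the transcribed side of that start and had a value of 1.84, the lowest the list kept. Genistein had 3 regions within 5 kb of it, the nearest 2.19 kb away with a value of 25.5. Mitoxantrone had 1, at 169145107 to 169145368, 1.17 kb away, with a value of 53.5, its second highest in MECOM. That mitoxantrone region also had an input signal of 2.13, the highest value found in MECOM, and a deposited log2 value over input of 4.65. Etoposide and p-benzoquinone had none within 5 kb; their nearest regions lay 7.3 kb and 19 kb away. At the long-form start each list had 1 region within 5 kb, the nearest 1.40 kb away in DMSO with a value of 2.30.

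**Figure D3:**
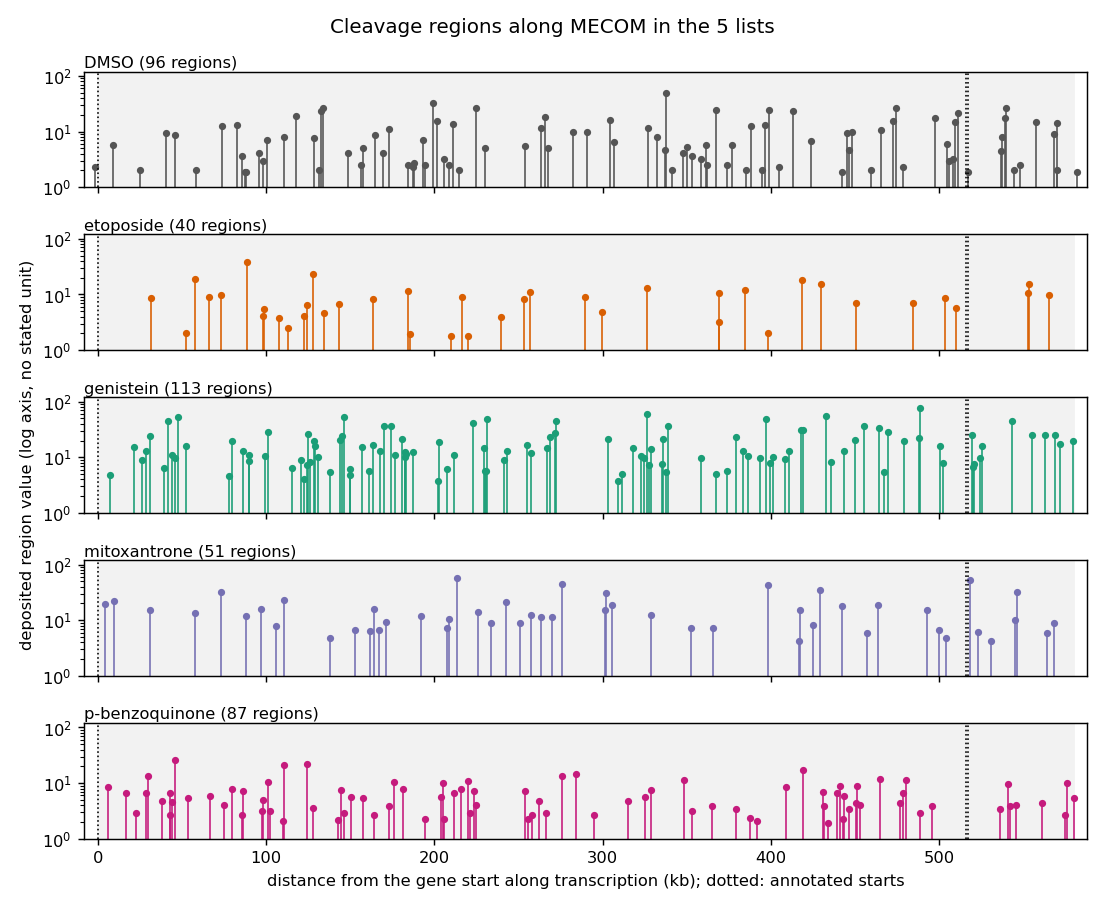
Regions along MECOM in the 5 lists: each stem is a region at its distance from the long-form start (kb), its height is the deposited value on a log axis, grey shading is the gene body and dotted lines are the 3 annotated starts. Stems run the length of the gene in all 5 lists, and each list has few or none next to the EVI1 starts near 517.2 kb.

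The strength of the MECOM regions was close to that of their lists. The median value was 5.77 in DMSO where the whole list had 6.24, and 8.14 against 7.79 for etoposide. It was 13.3 against 12.9 for genistein, 12 against 13.3 for mitoxantrone and 5.06 against 4.83 for p-benzoquinone. The share of MECOM regions in the top 10% of their list ran from 7.5% under etoposide (exact 95% interval 1.57 to 20.4) to 14.2% under genistein (8.32 to 22). Lists have different lowest values, 1.82 to 3.87, so values are read within a list only.

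The strongest MECOM regions sat at different places in each list. In DMSO the highest value, 49.1, was at 169326098 to 169326250, 337.5 kb from the start, and values of 32.5 and 26.7 followed at 199.3 and 474.7 kb. Etoposide peaked at 38.4 at 169574871 to 169575029, 88.8 kb from the start, then 23.8 at 128.1 kb and 19.3 at 57.9 kb. The 3 strongest etoposide regions thus all lay within 128.1 kb of the start, as did the 3 strongest of p-benzoquinone, a pattern seen after ranking. Genistein peaked at 76.6 at 169174721 to 169174888 (488.9 kb), then 60.3 at 326.4 kb and 55.9 at 432.9 kb. Mitoxantrone peaked at 57.7 at 169450209 to 169450352 (213.4 kb), inside the stretch of the antisense gene MECOM-AS1, and 53.5 and 45.4 followed at 518.5 and 275.7 kb. The 3 strongest p-benzoquinone regions lay 46.1, 124.1 and 111.0 kb from the start with values of 26.1, 22.2 and 21.01. MECOM-AS1, a long non-coding RNA gene within MECOM, overlapped 10 DMSO, 1 etoposide, 5 genistein, 4 mitoxantrone and 6 p-benzoquinone regions. These numbers are not scaled to list size, and the gene was chosen after its values were seen. A difference between lists was not tested there.

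Along PRDM16 the p-benzoquinone regions were spread too, with 4 to 17 in each of 10 bins of 37.3 kb. Bins 7 and 8, from 222.1 to 296.7 kb, held 16 and 17, and the last held 4. The longest stretch free of p-benzoquinone regions was 18.5 kb. Etoposide left 70.1 kb free, from 224.9 to 295.0 kb. In that stretch p-benzoquinone had 31 regions, DMSO 14, genistein 13 and mitoxantrone 3, and it was picked as the longest free one. All lists together left at most 9.50 kb free.

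The start of PRDM16 lay inside a DMSO region, 3069178 to 3069297, with a value of 1.84, the lowest in that list. Within 5 kb of the start DMSO had 3 regions and p-benzoquinone 3, and the other lists had none. With list means of 6.61 (etoposide) to 15.0 (genistein) regions per 100 kb, these numbers are too small to read a difference between lists. The nearest etoposide region was 5.44 kb away, the nearest genistein region 11.3 kb and the nearest mitoxantrone region 24.4 kb. A p-benzoquinone region at 3067297 to 3067471 with a value of 3.19, lay in PRDM16-DT, the divergent non-coding gene that starts 254 bp from it. MIR4251, a microRNA gene within PRDM16 at 3127975 to 3128035, overlapped no region. Each list covered only 1.17% to 5.68% of the window, so a gene this short would seldom meet one.

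**Figure D4:**
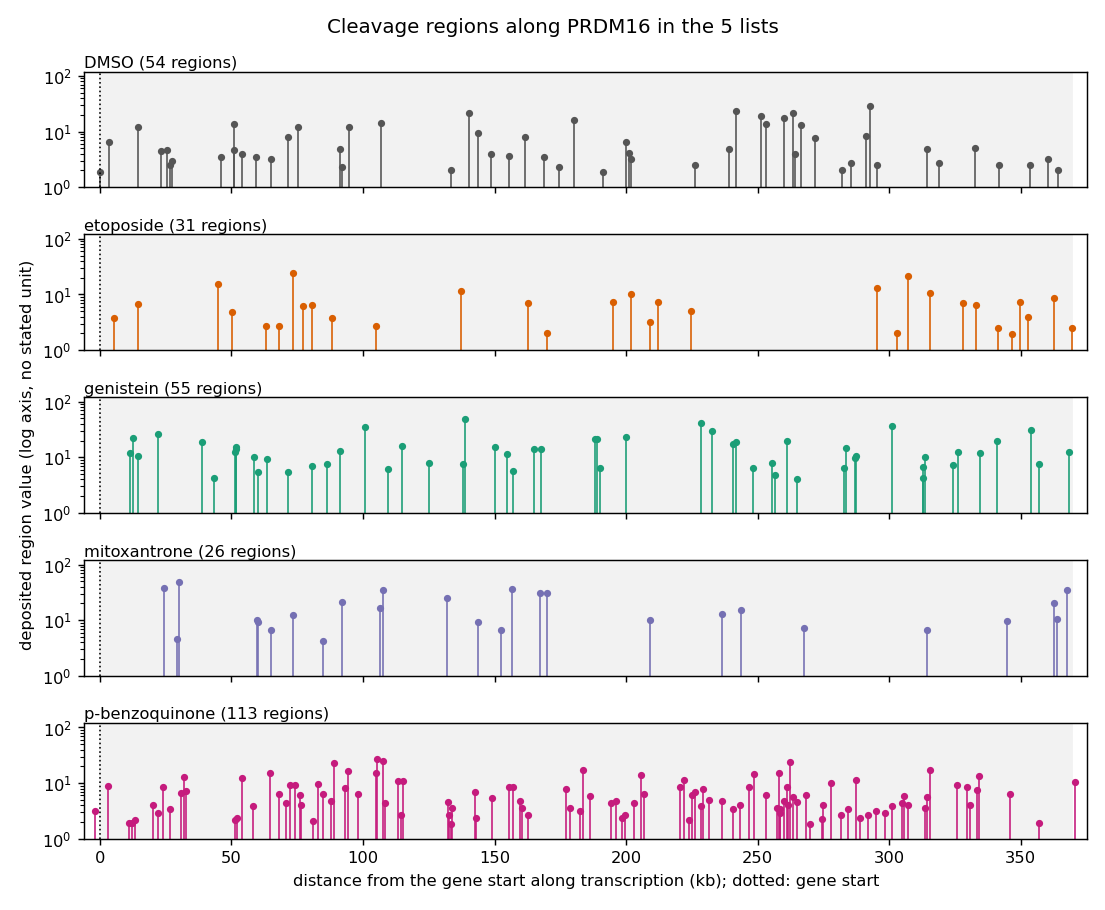
Regions along PRDM16 in the 5 lists, drawn by distance from the gene start (kb) with the deposited value on a log axis; grey shading is the gene body. The 113 p-benzoquinone stems fill the gene, and etoposide has none from 224.9 to 295.0 kb.

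Median region values in PRDM16 lay furthest below the list median in etoposide and DMSO, and no interval was computed for this lean. Both lists mix fine and coarse steps, and PRDM16 was denser in their fine parts than in their coarse parts. The lists with coarse steps only started at 3.72 and 3.87, where DMSO started at 1.84 and etoposide at 1.82. A low lean of the values and the mix of step classes therefore cannot be told apart. The medians were 6.44 where the etoposide list had 7.79, and 4.49 where the DMSO list had 6.24. Of 31 etoposide regions 8 were above the list median, and of 54 DMSO regions 21 were. Genistein (12.2 against 12.9), mitoxantrone (12.8 against 13.3) and p-benzoquinone (4.83 against 4.83) lay closer to their lists. Of the 113 p-benzoquinone regions 15, or 13.3% (7.62 to 20.9), were in the top 10% of their list.

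The strongest PRDM16 regions were weaker than those of MECOM in each list but p-benzoquinone. PRDM16 also held fewer regions than MECOM in each list but p-benzoquinone, and a highest value tends to rise with region number. The share of regions in the top 10% of their list was lower in PRDM16 for DMSO, etoposide and genistein. It was higher for mitoxantrone (19.2% against 9.8%) and p-benzoquinone (13.3% against 8.05%). The DMSO maximum was 28.4 (3361633 to 3361805, 292.5 kb from the start). Genistein peaked at 49.9 (3208010 to 3208154, 138.9 kb) and etoposide at 24.1 (3142578 to 3142747, 73.5 kb). Mitoxantrone peaked at 48.0 (3099028 to 3099367, 30.0 kb). Under p-benzoquinone the top values were 27.3 (3174462 to 3174643) and 25.1 (3176965 to 3177105), which lay 105.3 and 107.8 kb from the start, and 23.7 at 262.4 kb. The p-benzoquinone region of value 25.1 overlapped a mitoxantrone region of value 34.7, whose input signal was 2.13.

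In RPN1 each of the 15 regions can be placed. The 4 DMSO regions lay 2.0, 8.5, 12.8 and 18.9 kb from the start with values of 43.3, 4.85, 2.07 and 12.9. The region at 2.0 kb, 128648736 to 128648938, was the strongest DMSO region in the gene and stood at percentile 98.6 of the DMSO list. A p-benzoquinone region of value 2.65 at 128648629 to 128648805 overlapped it, the only position in RPN1 that lists shared.

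The single etoposide region of RPN1 lay 18.7 kb from the start with a value of 3.72, which is at percentile 15.5 of its list. The genistein regions lay 20.5, 20.6 and 27.8 kb from the start with values of 29.2, 16.9 and 18.0. The mitoxantrone regions lay 3.7 and 9.6 kb from it with values of 19.1 and 19.4. Of the 5 p-benzoquinone regions 2 lay at the far end, at 29.7 kb and, beyond the gene, 32.7 kb, with values of 5.79 and 6.03. The other p-benzoquinone values were 2.65, 2.28 and 4.34. The region nearest to the RPN1 start in any list was the DMSO one, 1.88 kb away.

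**Figure D5:**
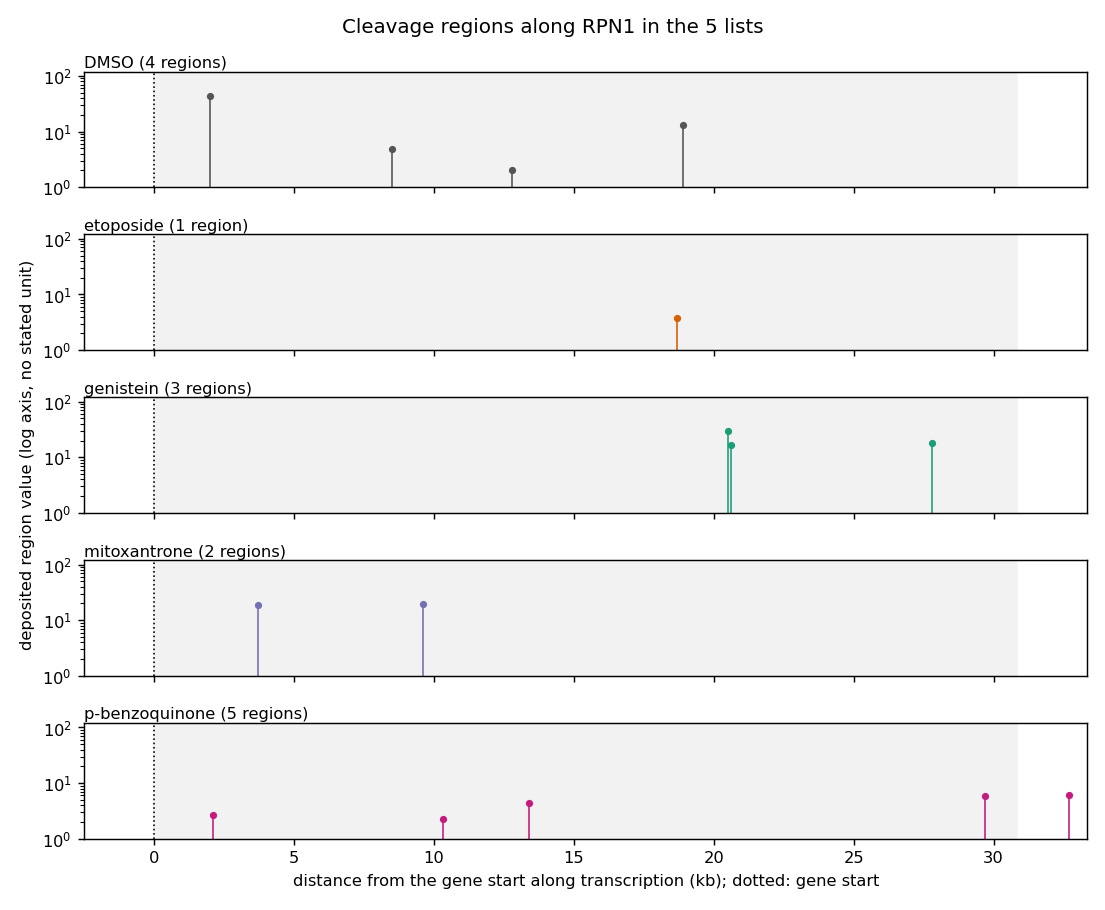
The 15 regions of RPN1 and its 2 kb flanks by list, drawn by distance from the gene start (kb) with the deposited value on a log axis. The DMSO region 2.0 kb from the start, with a value of 43.3, is the tallest DMSO stem, and heights are read within a list only.

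Few positions were shared between treatments, both in these genes and over the genome. After joining regions that overlapped by at least 1 bp, MECOM held 350 positions, of which 33, or 9.43% (exact 95% interval 6.58 to 13.0), came from more than 1 list. PRDM16 held 235 positions with 41 shared, or 17.4% (12.8 to 22.9), and RPN1 14 with 1 shared. The genome-wide share was 12.2% of 1291451 positions, which lay inside the MECOM interval and below the PRDM16 interval. The MECOM and PRDM16 intervals overlapped only between 12.8% and 13.0%. A dense list meets others more often, so the share moves with the p-benzoquinone density of PRDM16, and its part in the share was not tested. No position in the 3 genes was present in more than 3 lists, where 1598 of the 1291451 genome positions were.

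Of the poison regions in PRDM16 22 of 225 met a DMSO region, or 9.78% (6.23 to 14.4). In MECOM 14 of 291 did, or 4.81% (2.65 to 7.94). When centres within 500 bp counted as meeting, the shares were 15.1% in PRDM16 (10.7 to 20.5) and 15.8% in MECOM (11.8 to 20.5), so the order of the genes depended on the rule. Over the genome the share ran from 6.79% under genistein to 8.39% under etoposide. By pair, 1 etoposide region of MECOM met a DMSO region, which was 2.5% of the 40 etoposide and 1.04% of the 96 DMSO regions. In PRDM16 9 p-benzoquinone regions did, 7.96% of the 113 and 16.7% of the 54.

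Positions in 3 lists numbered 4 in MECOM and 3 in PRDM16, or 1.14% and 1.28% of their positions. Over the genome 1.41% of positions were in 3 or more lists, so these genes were close to that share. In MECOM the one at 169617391 to 169617738, 46.1 kb from the start, had a DMSO value of 8.55, a genistein value of 9.67 and a p-benzoquinone value of 26.1, the strongest p-benzoquinone value in the gene. The one at 169409915 to 169410150 (253.7 kb) had a DMSO value of 5.54, an etoposide value of 8.14 and a p-benzoquinone value of 7.24. The position at 169334501 to 169334830 (329.0 kb) held 13.98 under genistein, 12.6 under mitoxantrone and 7.47 under p-benzoquinone, with 7 bp common to all. At 169589919 to 169590456 (73.5 kb) DMSO (12.5), mitoxantrone (31.8) and etoposide (9.82) formed a chain with no base in common.

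In PRDM16 the position at 3120355 to 3120563, 51.3 kb from the start, had the most bases in common, 127 bp. It had a p-benzoquinone value of 2.16, a genistein value of 12.5 and a DMSO value of 13.5. The one at 3083703 to 3083947 (14.6 kb) had a genistein value of 10.8, an etoposide value of 6.78 and a DMSO value of 12.2. The one at 3364231 to 3364500 (295.2 kb) had an etoposide value of 12.9, a p-benzoquinone value of 3.14 and a DMSO value of 2.53.

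The mitoxantrone list alone carries an input signal, from an input library that the list does not name. It was 0 in 10 of 51 MECOM regions, or 19.6% (9.82 to 33.1), in 4 of 26 PRDM16 regions, or 15.4% (4.36 to 34.9), and in 22.5% of the whole list. The median input was 0.23 in MECOM, in PRDM16 and in the list. Where input was above 0, the deposited log2 of treated over input had a median of 4.74 in MECOM and 4.88 in PRDM16, against 4.82 overall. For that list, input was therefore close to the list's median in both genes.

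The stretches beside the genes were measured because 3q21 and 3q26 breaks also fall there. Between GATA2, an erythroid and stem cell transcription factor gene, and RPN1 lie 126.8 kb that hold the enhancer moved by inv(3). This stretch held 27 p-benzoquinone regions, 1.64 times the list mean (1.08 to 2.38). DMSO had 16 there (1.12 times, 0.643 to 1.83), etoposide 9 (1.07, 0.491 to 2.04), genistein 18 (0.945, 0.56 to 1.49) and mitoxantrone 6 (0.645, 0.237 to 1.40). All intervals of the other lists contained 1.

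Beside PRDM16 the p-benzoquinone density was also above the list mean. The 100 kb below it held 44 p-benzoquinone regions, 3.38 times the list mean (2.46 to 4.54), and the 100 kb above it 25, or 1.92 times (1.24 to 2.84). DMSO and etoposide were also above their means in the lower stretch, at 1.96 (1.23 to 2.97) and 1.97 times (1.05 to 3.36), while mitoxantrone was at 0.409 times (0.0843 to 1.19). The 100 kb above MECOM, upstream of the long-form start, held 5 DMSO regions (0.446 times, 0.145 to 1.04). The 100 kb below MECOM, past the end of EVI1, held 20 (1.78 times, 1.09 to 2.75). Mitoxantrone was at 1.5, genistein at 1.46, p-benzoquinone at 0.923 and etoposide at 0.757 times in this lower stretch. In the upper stretch p-benzoquinone was at 1.15, genistein at 0.932, mitoxantrone at 0.817 and etoposide at 0.605 times. All these poison intervals contained 1. In the 100 kb on each side of RPN1 the folds ran from 0.409 to 1.51, and every interval contained 1.

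Related genes showed how far these levels were shared. In the other 15 PRDM-family genes, which encode PR-domain zinc finger proteins, 12 lay above the p-benzoquinone list mean and the median was 1.59 times, where 57.2% of 18899 protein-coding genes lay above it with a median of 1.12. In DMSO 10 of 15 did, with a median of 1.06, where 50.2% of all genes did with a median of 1.0. Etoposide had 8 of 15 above its mean (44.7% of all genes), genistein 7 (43.3%) and mitoxantrone 7 (42.9%). PRDM8 had 11 DMSO and 6 p-benzoquinone regions, 4.25 and 2.00 times the means, and PRDM15 15 and 20, or 1.57 and 1.81 times. Of the 11 other oligosaccharyltransferase genes 8 lay above the genistein mean, or 72.7% against 43.3% of all genes, with a median of 1.28. The p-benzoquinone count was 7, or 63.6% against 57.2%, with a median of 1.09 against 1.12. Vehicle and etoposide had 6 each, or 54.5% (all genes 50.2% and 44.7%), and mitoxantrone had 5, or 45.5% (all genes 42.9%). KRTCAP2 and STT3A had the highest mean density among them, with 3 and 7 genistein regions.

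Of 7 genes for repressor partners of MECOM and PRDM16, 6 were measured. In DMSO, genistein and p-benzoquinone 3 of 6 lay above the mean, or 50.0% (all genes 50.2%, 43.3% and 57.2%). Etoposide had 4, or 66.7% against 44.7%, and mitoxantrone 1, or 16.7% against 42.9%. SMAD3, a TGF-beta signal transducer, had 23 DMSO and 33 p-benzoquinone regions (1.53 and 1.90 times), and the corepressor gene CTBP1 had 5 and 13 (1.04 and 2.33 times). Among the 16 measured of 18 neighbouring genes, 13 lay above the p-benzoquinone mean, or 81.2% against 57.2% of all genes, with a median of 1.59. In DMSO 7 did, or 43.8% against 50.2%, with a median of 0.977. Genistein had 9 (56.2% against 43.3%), etoposide 7 (43.8% against 44.7%) and mitoxantrone 6 of 16 (all genes 42.9%). ACTRT2, next to PRDM16, had 5 p-benzoquinone regions and 1 in DMSO, and ACTRT3, next to MECOM, had 3 and 2. GATA2 had 1 region each in DMSO, etoposide and mitoxantrone and 4 each under genistein and p-benzoquinone.

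The genes whose 4 ratios to DMSO were most like those of MECOM, by summed absolute log2 difference over 740 genes of like length, were FMN2 (0.14), WDPCP (0.23) and CDKAL1 (0.23), where the median gene was at 1.58. FMN2 had 55 DMSO and 24 etoposide regions. For PRDM16 they were ANO1 (0.25), ATP2B2 (0.30) and TBXAS1 (0.41) of 1353 genes with a median of 2.12. Their p-benzoquinone ratios were 1.73, 1.82 and 2.05, which entered the choice of these genes and are not a separate observation.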

How the data were processed

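The submitters' processing notes name Bowtie2 2.1.0, SAMtools 0.1.19 and hg38; the tool that called regions is not stated in them or in the files. Deposited were union lists, 1 per treatment; the region value is a signal the authors deposited with no stated unit. Their mitoxantrone list adds an input signal, a log2 value over input and, where input is 0, a p-value (deposited by the authors, not used for any call). The mitoxantrone list was assigned to the single mitoxantrone library because both carry that treatment. Read depth per library is unknown. Reads amplified by PCR and carrying no molecular identifier are not independent, so intervals cover counting error only.

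Regions on chromosomes 1 to 22, X and Y were used; overlapping genistein entries were joined, and the highest value stands for a joined region. List means are over 2763 Mb in 100 kb bins where at least 1 list has a region. RefSeq GRCh38.p14 gave 20037 protein-coding genes, 18899 of them in such bins. Intervals are exact Poisson or exact binomial at 95%. Library parts hold component values under 12 that fall on 1 step only (36.5% to 65.4% of a list's components); how many steps each list has was fixed manually. The alternatives were values of at least 4, the strongest 50%, flanks of 0 or 10 kb, any overlap, genistein as deposited, scaling by chromosome, covered bases, genes of 0.8 to 1.2 times the length and stricter or looser sharing. Step classes and values under 12 were chosen after seeing the data. Named regions are up to 3 of the strongest per gene and list, those in 3 lists and all of RPN1. Regions near a gene start, or overlapping a named region, were named for their position after their values were seen. Named genes are the 2 with the highest mean density per gene list and the 3 with the most similar ratios. GATA2, MECOM-AS1, PRDM16-DT and MIR4251 were chosen after their values were seen. The members and gene lists were chosen with earlier results of these data known. Scripts ran in Python 3.11.15 with scipy 1.17.1, pandas 2.3.3 and numpy 2.4.6 (figures: matplotlib 3.10.9). The interval call was tested on simulated independent Poisson counts, and the step split on simulated fine steps only. Separation of fine from coarse steps was not simulated.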

Additional observations from a re-analysis of the deposited data

How the results depend on the processing

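Of 230 alternative values, 210 stayed inside the interval of the value reported, or within 1.5 times of a count, 19 did not, and 1 whose interval excluded 1 changed direction. Many of these intervals are wide, so staying inside can hide a large shift. With values of at least 4 the PRDM16 percentile went from 78.9 to 42.8 in DMSO. Under etoposide it went from 74.1 to 31.9, and both stayed inside. The density of PRDM16 under etoposide was 0.646 times the list mean on the strongest 50% of each list. RPN1 under etoposide had 0 regions, hence a density and a ratio of 0, with values of at least 4 and with the strongest 50%, and its percentile was then 10.7 with values of at least 4; its ratio within the fine class was 0, as were the RPN1 ratios of genistein and mitoxantrone with values under 12. Within the fine step class the PRDM16 ratio for p-benzoquinone was 1.14, where other value minimums, flanks, scaling and covered bases gave 1.61 to 2.43; the PRDM16 ratio of etoposide to p-benzoquinone was 1.33 there and 0.54 over the whole lists. Within the coarse class the PRDM16 ratios were 3.13 for etoposide, 2.02 for genistein and 2.05 for mitoxantrone, and the MECOM ratio for mitoxantrone was 1.18. The cause was not tested. Poison regions meeting a DMSO region numbered 14 in MECOM, 22 in PRDM16 and 1 in RPN1; with an overlap of 50% of the shorter region MECOM had 9 and RPN1 0, and with centres within 500 bp the numbers were 46, 34 and 2. No paired analysis was possible because there is 1 value per region and treatment and no column carries a replicate number: 4 lists pool libraries and the mitoxantrone list has a single one. For the same reason no replicate could be left out. Small region numbers limit RPN1 most.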
